A study of Homo sapiens with 4 samples.

Results

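Y RNAs are small non-coding RNAs that RNA polymerase III transcribes from their own short genes. Their ends pair into a stem that the Ro60 protein binds, and the La protein binds the run of U at their 3′ end. They take part in RNA quality control and in the start of DNA replication, and pieces of them are a common part of the RNA in extracellular vesicles and blood. The genes RNY1, RNY3, RNY4 and RNY5 lie together on chromosome 7, and many copies of them are scattered over the genome. Described here are the features of the deposited count table that are typed as Y RNA and lie in this cluster. These were 3 of the table's 155642 features, one each for RNY1, RNY3 and RNY4, and 3 of its 696 features typed as Y RNA. RNY5 had no row of that type.

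Sequencing was of small RNA in small extracellular vesicles, which are membrane-enclosed particles shed by cells. The source was HT29, an established line of human colon cancer cells, at passages 5 to 15, and the series title names a gain-of-function p53 protein as its subject. The 2 control libraries were from HT29 cells with a nontargeting control sequence. The 2 p53 shRNA libraries were from HT29 cells carrying an shRNA for p53. In its normal form this transcription factor guards against tumour growth, whereas the title names a gain-of-function form. The labels give no clone or vector, and the count table is of non-coding RNA features, so the targeted mRNA was not checked here. All 4 libraries hold total vesicle RNA from a column kit, size-selected to 18 to 40 nt, so counts on a Y RNA are of its fragments. Whether replicate libraries stem from separate cultures is not stated, and p-values here reflect the spread among these samples alone, which may be technical. Nor can less vesicle RNA of one kind and more of the others be told apart, since every level is relative to the rest of its library.

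Counts totalled between 938754 and 1099694 in the controls and between 1940942 and 2611032 in the p53 shRNA libraries, the deeper group. Features at ribosomal RNA genes took 53.5% to 60.1% of each library. The cell type could hardly be checked. Of 12 hairpins put on a list for colon epithelium, 4 had a count, in sum 11 and 15 in the controls, against 24 and 67 with p53 shRNA. Of these MIR7-1 alone gave 10 and 15 against 23 and 64, so the sum is mostly that of 1 hairpin. MIR200C, MIR141 and MIR203A had at most 2 counts in any library. MIR192 and MIR200A, among the defining ones, were at 0 but had no base outside other features. MIR215, which had such bases, was at 0 as well. Of 9 hairpins of blood and serum miRNAs, 2 had a count (2 and 4 against 11 and 5), and of 5 stromal ones 0 had. Their part in the Y RNA counts was not tested.

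The sequences of RNY1 and RNY4 show what they share and where a short fragment can be placed. They are GENCODE 29 transcripts on GRCh38, written 5′ to 3′ as DNA, with capitals on the 11 bases at the 5′ end that both have in common. RNY1 lies at chr7:148987136-148987248 on the minus strand, RNY3 at chr7:148983755-148983856 and RNY4 at chr7:148963315-148963410, both on the plus strand. Each is a gene of a single exon, between the protein-coding genes EZH2 and PDIA4.
RNY1: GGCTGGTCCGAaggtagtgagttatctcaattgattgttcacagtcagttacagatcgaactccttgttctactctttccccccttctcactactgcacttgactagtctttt
RNY4: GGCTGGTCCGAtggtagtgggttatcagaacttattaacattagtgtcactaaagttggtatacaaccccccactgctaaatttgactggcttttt

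The RNAs are 113, 102 and 96 bases long. Over the whole length RNY1 and RNY4 were 64.7% identical. Both end in a run of T, of 4 bases in RNY1 and 5 in RNY4. In folds predicted with ViennaRNA, bases 1 to 21 of RNY1 paired with bases 87 to 109, and bases 1 to 21 of RNY4 with bases 70 to 92. The stem at the ends was thus present in both predictions, with 17 and 20 pairs. Along the chromosome, RNY3 and RNY1 are 3279 bases apart and RNY4 is 20344 bases from RNY3.

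RNY1 gave most counts of the cluster, and both p53 shRNA libraries lay far below both controls. Its counts were 7803 and 11602 in the controls, against 977 and 1251 with p53 shRNA, replicate 1 first. The raw counts were thus lower in the deeper libraries. As CPM, counts per 1000000 of library size (counts on the features tested, times the TMM factor of edgeR), these were 11510 and 11492 against 349 and 536. The groups did not overlap, and the lower control was 21.4 times the higher p53 shRNA library, while the p53 shRNA libraries differed 1.54-fold from each other. The ratio of the group means was 26.0. The log2 change of p53 shRNA over control was −4.70 (SE 0.31), with an unadjusted p of 0.00112 in edgeR's quasi-likelihood test. After Benjamini-Hochberg adjustment over the 2780 features tested, p was 0.122, so the change did not pass 0.05.

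RNY3, the nearest to RNY1 of the other Y RNA genes of the cluster, had 129 and 118 counts in the controls, against 61 and 26 with p53 shRNA. Its normalized counts were 190 and 117 CPM against 21.8 and 11.1 CPM. Here too the groups did not overlap, with the lower control 5.36 times the higher p53 shRNA library. The controls differed 1.63-fold and the p53 shRNA libraries 1.95-fold. The log2 change was −3.21 (SE 0.57), with an unadjusted p of 0.0178 and an adjusted p of 0.257 in edgeR's test. Without p53 shRNA replicate 2 it was −2.54. Y RNA genes have scattered copies to which short reads may also map, so its level is uncertain.

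RNY4 had 11 and 1 counts in the controls, against 127 and 12 with p53 shRNA, or 16.2 and 0.991 against 45.4 and 5.15 CPM. The groups overlapped, as control replicate 1 lay above p53 shRNA replicate 2. Replicate 1 was the higher in both groups, 16.4-fold in CPM in the controls and 8.82-fold in CPM with p53 shRNA. The log2 change of 1.62 (SE 2.08) had an unadjusted p of 0.239 and an adjusted p of 0.686 in edgeR's test. Leaving out p53 shRNA replicate 1 gave −0.49, and leaving out p53 shRNA replicate 2 gave 2.78. Leaving out control replicate 1 gave 4.41, and control replicate 2 0.71. No direction can be given for this row.

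**Figure D1:**
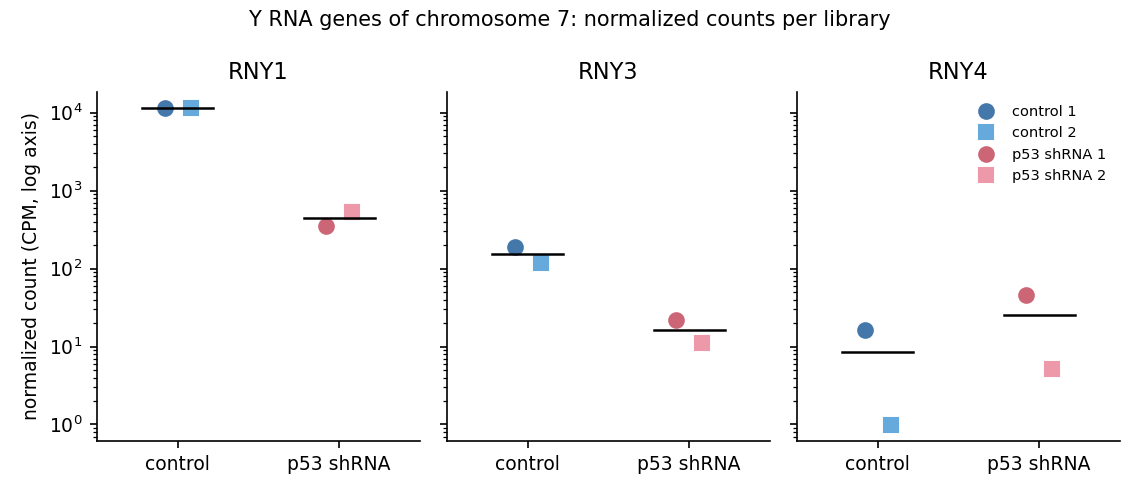
Normalized counts (CPM on a log axis) of RNY1, RNY3 and RNY4 in each library, with control and p53 shRNA on the horizontal axis. Points are single libraries, circles for replicate 1 and squares for replicate 2, and horizontal lines are group means. RNY1 lies at 11510 and 11492 CPM in the controls and at 349 and 536 CPM with p53 shRNA, while the RNY4 groups overlap.

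All 3 genes passed edgeR's filter on low counts. At an adjusted p of 0.05, 0 of them passed, against 0 of all features (0%) in edgeR's test, and limma voom also called 0 (0%). At an unadjusted p below 0.05, 2 of the 3 were lower with p53 shRNA, where the share of all features tested was 7.81%. In 2 of the 3, each p53 shRNA library was under each control, against 18.6% of all features. The DESeq2 Wald test called 1 of the 3 lower, RNY1 with an adjusted p of 0.00103, against 1.61% of the features to which it gave an adjusted p. RNY3 had an adjusted p of 0.0620 and RNY4 of 0.796 in that test. In all, 338 features had an unadjusted p below 0.05 in edgeR's test, 301 did in limma voom, and the DESeq2 Wald test called 37.

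Among all features, 0.755% had a log2 change below that of RNY1, 3.88% one below that of RNY3 and 86.9% one below that of RNY4. The median change over all features was 0.05. RNY1 ranked 21 by unadjusted p. Of the 42 features with at least 1000 CPM in the controls, a level chosen after the values were seen, 0 had a lower log2 change than RNY1, and the next was at −3.84. The median of those 42 was −1.23. A set picked by its level in the controls alone leans towards lower changes. The place of RNY1 in it is therefore no separate support. The change of RNY1 ranged from −4.82 to −4.32 when each library was left out in turn. Scaling by library totals gave −4.24 for RNY1, −2.70 for RNY3 and 2.29 for RNY4, with a median of 0.49 over all features. With no filter on low counts these were −3.90, −2.36 and 2.60, with a median of 1.38.

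**Figure D2:**
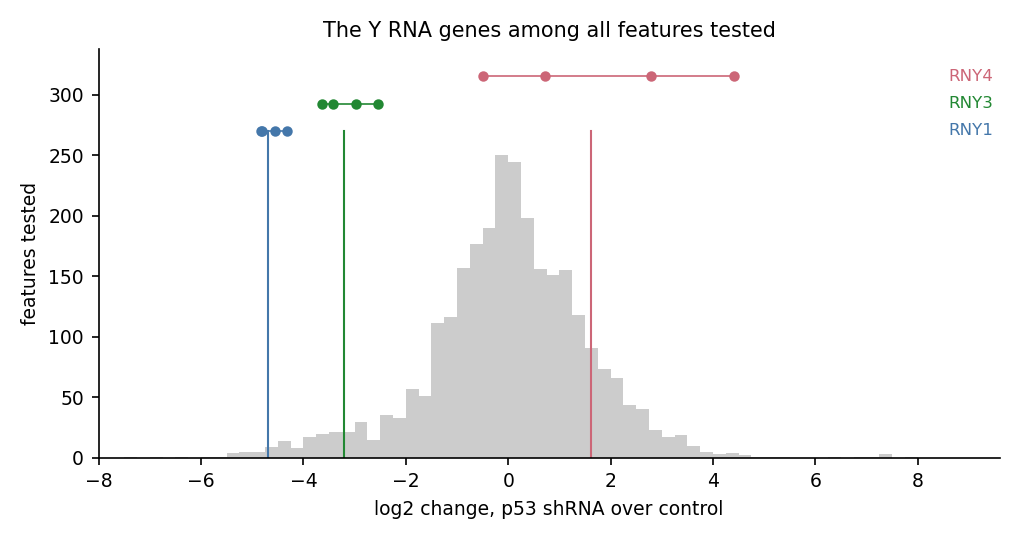
Histogram of the log2 change (p53 shRNA over control, horizontal axis) of the 2780 features tested, with the number of features on the vertical axis. Vertical lines mark RNY1 at −4.70, RNY3 at −3.21 and RNY4 at 1.62, and the joined points above give each gene's change without each library in turn, which crosses 0 for RNY4.

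As a share of all counts, with no scaling by TMM, the cluster held 0.722% and 1.25% in the controls, against 0.0446% and 0.0664% with p53 shRNA. The 95% Wilson intervals, which cover counting error only, were 0.707% to 0.738% and 1.23% to 1.27% in the controls, and 0.0421% to 0.0473% and 0.0629% to 0.0701% with p53 shRNA. No interval reached that of another library. The controls thus differed more in this share than in CPM, as the TMM factors were 0.637 and 1.12 in the controls, against 1.13 and 1.25 with p53 shRNA. The group means were 0.985% ± 0.372 and 0.0555% ± 0.0154 (SD, n = 2), a ratio of 17.8. Of counts outside ribosomal features the cluster held 2.28% ± 0.805 and 0.127% ± 0.0218. The two-sided exact permutation test gave p = 0.333 for the share, the smallest value that 2 libraries against 2 allow, and 0.394 when adjusted over the 13 shares compared, many of which contain others.

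The make-up of the cluster's counts does not depend on how libraries are scaled. RNY1 was 98.2% and 99.0% of them in the controls, against 83.9% and 97.1% with p53 shRNA. These are shares of counts and not of the RNAs, as RNY4 had 17 bases that no other feature covers and RNY1 had 113. RNY5, with no row, is not in them. For every 100 counts on RNY1 there were 1.65 and 1.02 on RNY3 in the controls, against 6.24 and 2.08 with p53 shRNA. RNY4 was 0.138% and 0.00853% of the cluster in the controls, against 10.9% and 0.931% with p53 shRNA. For all 3 shares the groups did not overlap, with an exact permutation p = 0.333 each. The 3 shares add up to the whole cluster, so they are not separate results, and each moves with the count of RNY1. That of RNY4 rests on 11 and 1 counts in the controls, and as a share of all counts its groups overlapped. How often such shares overlap for other sets of features was not counted. The mean difference in the RNY1 share, p53 shRNA minus control, was −8.15 percentage points, but it was −1.56 without p53 shRNA replicate 1 and −14.7 without p53 shRNA replicate 2. Its size rested on p53 shRNA replicate 1.

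Counts of different genes were also set against the number of bases that could take a count. The table holds no read positions, and short reads may match scattered copies. These values are therefore not levels of the whole RNAs. Per kilobase, RNY1 had 101857 and 101698 CPM in the controls, against 3089 and 4747 CPM with p53 shRNA. RNY3 had 1866 and 1146 CPM per kilobase against 214 and 109. RNY1 was thus 54.6 and 88.8 times RNY3 in the controls and 14.5 and 43.4 times RNY3 with p53 shRNA. In each of the 4 libraries the order was RNY1 above RNY3. RNY4 is not placed in this order, for the reason given next.

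Only part of the cluster lay outside other annotated features. In the deposited table, 66527 features lie wholly under others when strand is ignored, and 0 of these had a count. Of the 89115 with some base of their own, 46090 had one. RNY1 and RNY3 shared no base with another feature. RNY4 shared its bases from 18 to the 3′ end with an exon of a lncRNA feature (chr7:148963332-148963494). That left 17 bases at the 5′ end, the capitals in this copy of the RNY4 sequence.
RNY4: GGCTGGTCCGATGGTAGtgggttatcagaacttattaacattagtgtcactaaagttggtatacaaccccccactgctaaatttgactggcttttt

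The size selection began at 18 nt, so an insert that starts at the first base of RNY4 would reach into the other feature. If RNY4 was counted as the features wholly under others were, its row holds no read that reaches base 18. A read of 18 nt or more in it would then extend beyond the 5′ end of RNY4. The row would thus be no measure of RNY4. In the table, 98 of 6542 features with 1 to 17 bases of their own had a count. RNY5 lies at chr7:148941488-148941571 in RefSeq (GRCh38.p14), over 84 bases. It was covered in full by one lncRNA feature and, but for its first base, by another exon of the lncRNA feature that overlaps RNY4. The former had 1 and 0 counts in the controls, against 0 and 1 with p53 shRNA, and the latter 0 in all 4 libraries. No level of RNY5 can be given from these counts.

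**Figure D3:**
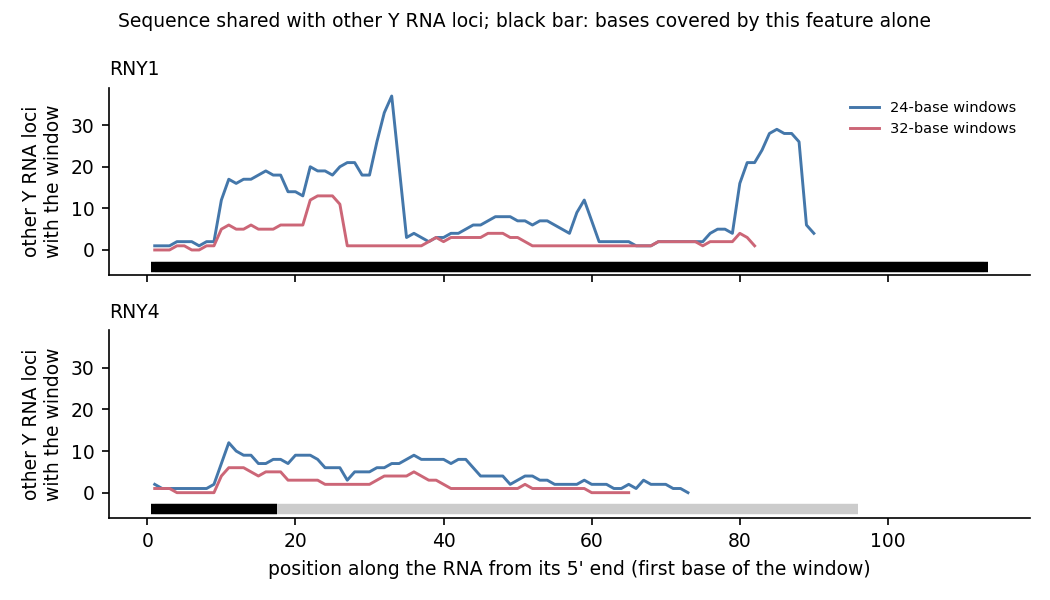
Position along RNY1 and RNY4 from the 5′ end (horizontal axis, first base of a window) against the number of other Y RNA loci that hold the same window exactly (vertical axis), for windows of 24 and 32 bases. The bar under each curve is the RNA, black where no other feature covers it, which is all of RNY1 and the first 17 bases of RNY4.

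A short read can also match a scattered copy as well as the gene. All 720 loci of Y RNA features in the table matched a GENCODE 29 transcript at the same coordinates, so their sequences were compared base by base. Of the 82 windows of 32 bases in RNY1, 5 were found in no other Y RNA locus, and the median window was in 2.0 others. In RNY4, 12 of 65 windows were found nowhere else, and the median was 1.0. Among windows of 24 bases, 0 of 90 in RNY1 and 1 of 73 in RNY4 were in no other Y RNA locus. Loci outside Y RNA features were not searched.

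The copies most like RNY1 at the 5′ end held few counts. The one with the same first 25 bases (chr7:6212638-6212740) had 20 and 17 counts in the controls, against 29 and 13 with p53 shRNA. The one with the same first 20 (chr19:40342329-40342441) had 6 and 9 against 30 and 6. In the controls these were at most 0.256% of the count of RNY1 itself. With p53 shRNA the former was 2.97% and 1.04% of it, and the latter 3.07% and 0.480%. In CPM the former was at 29.5 and 16.8 against 10.4 and 5.57, lower in both p53 shRNA libraries as RNY1 was, while the groups of the latter overlapped. When both were added to RNY1 the log2 change was −4.66 (edgeR adjusted p = 0.122). Rows this small could hardly move it. Copies alike in other parts of RNY1 were not added, and its windows of 24 bases were in up to 37 other Y RNA loci (median 6.5). How reads were split between RNY1 and its copies was thus not tested.

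Some scattered copies of RNY4 held far more counts than the row of the gene, most of which lies under another feature. The 15 Y RNA features with the most counts after RNY1, a set chosen after the values were seen, all hold the same word of 15 bases, GTGGGTTATCAGAAC, which is bases 17 to 31 of RNY4. The word was found in 18 of the 720 Y RNA loci. In 15 of them no other feature covers it. In the other 3, RNY4 among them, another feature covers 14 or all of its bases. The word is in capitals in RNY4, in a copy at chr10:34201979-34202074 (minus strand) where it could take counts, and in one at chr12:49132853-49132947 (minus strand) where it lies under another feature.
RNY4: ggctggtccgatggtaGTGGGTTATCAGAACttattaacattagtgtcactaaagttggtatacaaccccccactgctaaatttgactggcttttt
Copy on chromosome 10: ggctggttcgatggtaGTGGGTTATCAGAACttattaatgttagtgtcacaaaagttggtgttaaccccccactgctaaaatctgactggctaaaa
Copy on chromosome 12: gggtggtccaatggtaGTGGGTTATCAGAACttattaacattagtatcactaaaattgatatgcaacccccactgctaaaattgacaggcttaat

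The chromosome 10 copy had 400 and 50 counts in the controls, against 3277 and 186 with p53 shRNA, while the chromosome 12 copy had 0 in all 4 libraries. By mean CPM the chromosome 10 copy was the most abundant Y RNA feature outside the cluster. The next 2 were at chr2:175176493-175176586, with 349 and 40 counts against 3350 and 161, and at chr11:118970498-118970595, with 338 and 41 against 3306 and 163. A copy at chr3:157153548-157153640, which shares its first 34 bases with RNY4 and whose word lies under another feature, was also at 0 in all 4. The 15 copies whose word is free had much the same count within a library. These ran from 209 to 400 in control replicate 1, from 21 to 60 in control replicate 2, from 2410 to 3396 in p53 shRNA replicate 1 and from 117 to 212 in p53 shRNA replicate 2. The table holds no read positions, so it does not show where on a copy the reads lay, nor which of the 15 loci or RNY4 itself they came from. The stretch identical to RNY4, the word included, ran from 18 to 54 bases over the other 17 loci.

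**Figure D4:**
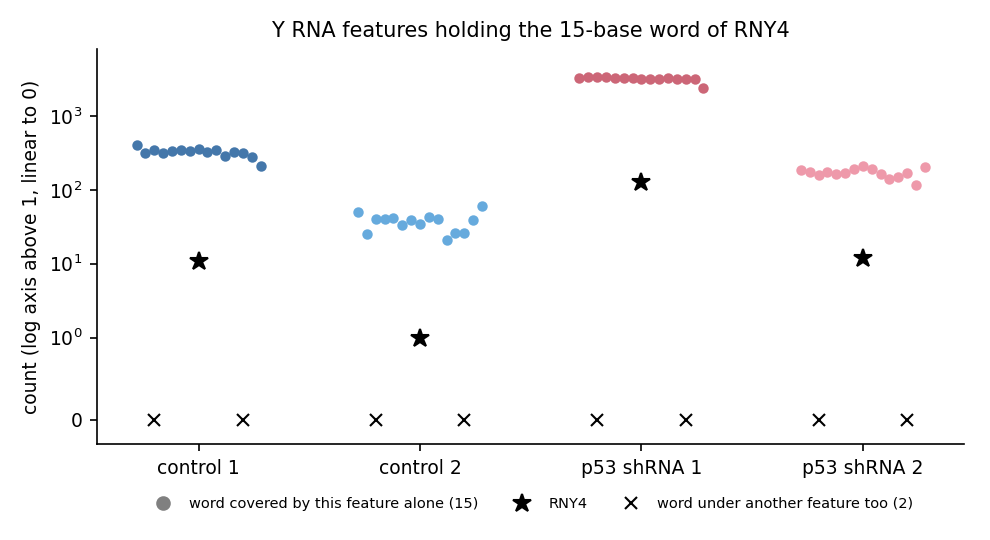
Counts of the 18 Y RNA features that hold the 15-base word of RNY4, by library (vertical axis logarithmic above 1 and linear down to 0). Circles are the 15 features whose word no other feature covers, the star is RNY4 and crosses are the other 2 features, which are at 0 in every library. Circles lie between 2410 and 3396 in p53 shRNA replicate 1 and at 400 or below in the other 3 libraries.

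Together the 15 copies held 4845 and 557 counts in the controls, against 47884 and 2556 with p53 shRNA. These were 0.441% and 0.0593% of all counts in the controls, against 1.83% and 0.132% with p53 shRNA. Replicate 1 was the higher of the pair in both groups, as for the row of RNY4. The sum of all 18 features was 7139 and 548 CPM in the controls, against 17276 and 1106 CPM with p53 shRNA, with a log2 change of 1.26 (edgeR adjusted p = 0.764). Leaving out p53 shRNA replicate 1 gave −1.59, and p53 shRNA replicate 2 gave 2.52. Leaving out control replicate 1 gave 3.86, and control replicate 2 0.32. Within a group the sum differed more between the libraries than the group means differed, unlike for RNY1.

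RNY1 and the 15 copies took most Y RNA counts between them. RNY1 was 54.6% and 84.6% of all counts on Y RNA features in the controls, against 1.91% and 26.8% with p53 shRNA. The 15 copies were 33.9% and 4.06% in the controls, against 93.7% and 54.7% with p53 shRNA. In both controls RNY1 was above the copies, and in both p53 shRNA libraries it was below them. RNY1's share of Y RNA counts did not overlap between the groups (exact permutation p = 0.333, the smallest possible). Y RNA features as a whole held 1.30% and 1.46% of all counts in the controls, against 1.96% and 0.241% with p53 shRNA, and there the groups overlapped.

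**Figure D5:**
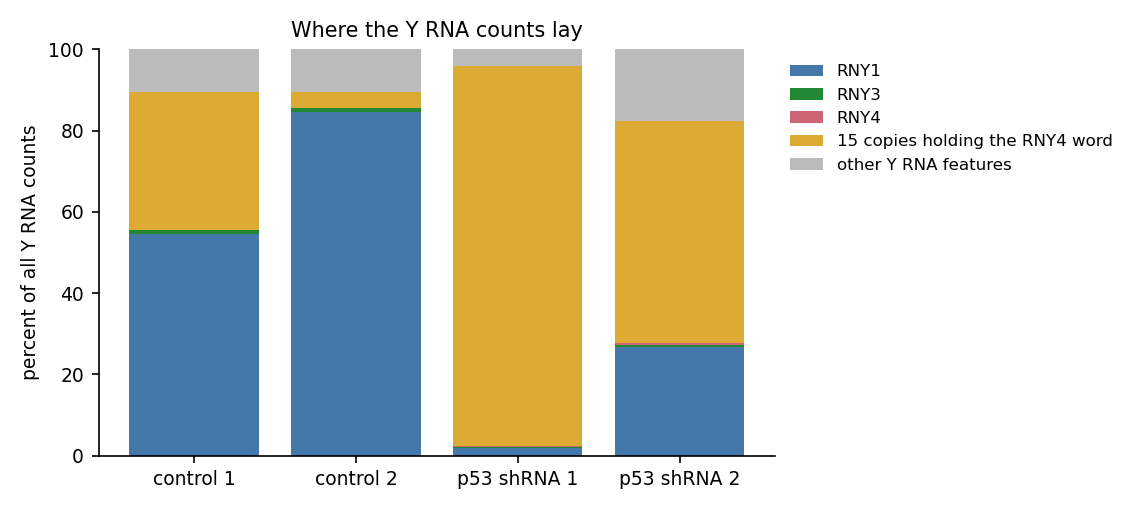
Percent of all counts on Y RNA features (vertical axis) in each library, split into RNY1, RNY3, RNY4, the 15 copies whose RNY4 word no other feature covers, and the 678 other Y RNA features. RNY1 takes 54.6% and 84.6% in the controls, against 1.91% and 26.8% with p53 shRNA.

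The 5 features whose pattern over the 4 libraries was most like that of RNY1 were all typed as lncRNA. Likeness was the Euclidean distance between log2 CPM values, each feature centred on its own mean. It was taken over 1728 features whose mean over the 4 libraries was at least 10 CPM. All 5 passed this filter through the controls, being under 10 CPM in both p53 shRNA libraries. Their lower values with p53 shRNA are thus no separate support. The nearest, with a distance of 0.23, overlaps the gene Z93930.2 on chromosome 22 when strand is ignored. It had 43 and 76 counts in the controls, against 3 and 6 with p53 shRNA. The second, at chr15:77885331-77886562 (distance 0.37), had 36 and 55 against 1 and 5. The next 3 overlap AC016590.1 (0.86), AL034548.1 (0.92) and KIRREL3 (0.97), strand again ignored. Their counts were 31 and 27 against 2 and 3, 54 and 54 against 6 and 11, and 28 and 30 against 3 and 4. With so few counts with p53 shRNA, their likeness is uncertain. All 5 were at under 100 CPM in every library, far below RNY1. RNY3 was at a distance of 1.96, with 41 features nearer, and RNY4 at 7.02, where the median feature was at 4.94.

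Y RNA genes share their polymerase with other small RNAs, and 16 of these were looked up by position. Of the 16, 13 had a row, 9 had bases of their own and 6 had a count. The 7SL genes RN7SL1 and RN7SL2, of the signal recognition particle, and BCYRN1 and VTRNA1-1 had rows with no base of their own, and their count was 0. Of the 4 that were tested, edgeR called 0 at an adjusted p of 0.05, and 1 was below 0.05 unadjusted. All 4 log2 changes were below 0, as were those of 1351 of the 2780 features tested. Their median was −1.28, where that of all features was 0.05. VTRNA1-2, an RNA of the vault particle, had 18686 and 7421 CPM in the controls, against 2543 and 750 CPM with p53 shRNA (log2 change −2.99, edgeR adjusted p = 0.261). It was the one with an unadjusted p below 0.05. In CPM its groups did not overlap, and neither did those of the RNU6-1 feature. Both p53 shRNA libraries were below both controls in 18.6% of all features. The raw counts of the RNU6-1 feature did overlap between the groups. VTRNA1-3, a second vault RNA, had 2586 and 294 against 2276 and 447 CPM (−0.08, adjusted p = 0.991). U6, the small RNA at the core of the spliceosome, had few counts. The feature of RNU6-1, which spans 3 loci, had 24 and 17 against 28 and 13 counts (−1.72, adjusted p = 0.494). That of RNU6-7, with 2 loci, had 12 and 9 against 32 and 7 (−0.85, adjusted p = 0.772). RPPH1, the RNA of RNase P, had 1 count in all, and RNU6ATAC had 2 counts in the controls and 8 with p53 shRNA.

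The rest of the chromosome 7 window that defines the cluster had few counts. The 19 other features with an exon in it held 2 and 3 counts in the controls, against 25 and 22 with p53 shRNA, and 5 of them had any. One with an exon over PDIA4 had 1 and 1 against 22 and 19 of these. None of the 5 was lower in both p53 shRNA libraries than in both controls.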

How the data were processed

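The authors deposited raw counts, whole numbers of reads per RNAcentral feature, in one table for 4 libraries, with an annotation file. BWA 0.7.17, Subread 1.6.3, bcl2fastq 2.19 and GRCh38 are named in the submitters' processing notes. The handling of strand and of reads with several matches was not given in the sources used here, so reads of both strands may be mixed. No count column belonged to another sample.

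Members are features typed Y_RNA in the chromosome 7 window of the rule. Members, lists and the naming rule (all members, the 5 features nearest RNY1, 16 polymerase III genes, the most abundant other Y RNA features) were chosen with earlier results of these data known. The 15-base word was found after the data were examined. Genes were matched to GENCODE 29 by 50% reciprocal overlap.

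edgeR 4.0.16's quasi-likelihood test (TMM on counts of the features kept, its low-count filter, Benjamini-Hochberg adjustment, no covariates, R 4.3.3) was fitted to all 4 libraries. It was also run on simulated data, the outcome of which is not reported here. SEs are of the difference between means of log2 CPM (prior count 2). Shares used exact permutation tests over the 6 splits. Alternatives were DESeq2 1.42.0, limma 3.58.1 voom, other scalings and filters, no ribosomal features (21 left out), the replicate block and each library left out. ViennaRNA 2.7.2 predicted folds. The sequence of RNY3 and comparisons that need it are not reported here.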

Additional observations from a re-analysis of the deposited data

How the results depend on the processing

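RNY1 was lower with p53 shRNA in each of 13 alternatives and RNY3 in each of 12 (log2 change −4.82 to −3.90 and −3.64 to −2.36), and the adjusted p of RNY1 ranged from 0.000342 to 0.979. RNY1 passed 0.05 under the DESeq2 Wald test (−4.73, adjusted p = 0.00103). Without each library in turn, RNY1 ran from −4.82 to −4.32, RNY3 from −3.64 to −2.54 and RNY4 from −0.49 to 4.41, its sign turning without p53 shRNA replicate 1 (−0.49; the cause was not tested). A lone library is then assumed to vary like the other group. The features called were 0 in the main test, 37 under the DESeq2 Wald test and 0 under limma voom and each library left out.

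With the replicate number as a block, edgeR gave RNY1 −4.73 (adjusted p = 0.000342) and called 103 features, with RNY3 and RNY4 not among them. Nothing in the labels pairs the libraries, and with 2 pairs the correlation of 0.395 between deviations of same-numbered libraries does not show a pairing.

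The cluster's share of counts was lower in all 6 alternatives (differences of −1.19 to −0.667 percentage points without a library). RNY1's share of the cluster was lower without each library in turn (−14.7 to −1.56), and its share of all Y RNA counts was lower by a difference of −55.3. Summing the features of a gene was not run, as each gene has 1. The row of RNY4 held 11 and 1 counts in the controls and had 17 bases that no other feature covers. Its dependence on depth was not tested.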
